A study of Mus musculus with 4 samples.

Results

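The regions described are the windows that surround the starts of mouse microRNA genes. They were taken from a table of promoter windows, each reaching 1 kb to either side of an annotated start, by keeping every row whose symbol begins with Mir or Mirlet and a digit and does not end in hg, the ending of microRNA host genes. The rule found 595 windows among 26354 rows. A microRNA gene is annotated as the short hairpin that is cut out of a longer transcript, so such a window often lies inside another gene and is not the promoter from which the hairpin is transcribed. The annotation of the mouse genome build GRCm38 placed 581 of the windows, and 14 symbols could not be placed. Of the placed windows, 191 (32.9%) overlapped the window of another microRNA gene and share reads with it, so they are not separate measurements. Counted as chains of overlapping windows, the placed windows come from 448 stretches of genome.

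The table holds chromatin immunoprecipitation sequencing (ChIP-seq) reads from the medial layer of the aorta of male C57Bl/6J mice, the layer of vascular smooth muscle cells (VSMCs). The tissue was taken directly from the animal after the fat, the adventitial layer and the endothelial layer had been removed by hand, and was fixed in formaldehyde. In each of 2 experiments, named v102 and v134, 1 library was made with an antibody to histone H3 dimethylated at lysine 9 (H3K9me2) and 1 input library with none, which gives 2 ChIP and 2 input libraries of untreated wild-type tissue. The labels give neither the age nor the number of animals behind a library, so adjusted p-values measure the spread between these libraries. Because whole tissue was used, a low H3K9me2 level in all cells and a high level in fewer cells cannot be told apart. The tissue label cannot be tested by expression here, since promoter H3K9me2 was measured and RNA was not. Of the 6 smooth muscle marker promoters, 2 had fewer and 1 had more ChIP than input reads after scaling for library size. Their mean log2 H3K9me2/input ratios ran from -2.77 to 1.45.

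H3K9me2 is written mainly by the methyltransferases EHMT2 and EHMT1 and marks facultative heterochromatin, in which genes are kept silent in a cell type. MicroRNAs are short RNAs that guide Argonaute proteins to messenger RNAs. The bases just behind their 5′ end, the seed, pair with the target, so microRNAs with the same seed share targets, although their genes can lie on different chromosomes. In VSMCs, microRNAs are known for holding the contractile state, as miR-143 and miR-145 do, and for promoting proliferation after injury, as miR-21 and miR-221 do.

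The mature microRNAs on which the results turn are shown first, because windows that encode the same seed differed in H3K9me2. They were read from the RefSeq table of GRCm38.p6, which holds 856 mature sequences with 697 different seeds for 509 of the 595 windows. Each is written 5′ to 3′ with the seed, bases 2 to 8, in capitals. The first lines carry the let-7 seed, from windows with mean log2 ratios from -2.67 to 1.18.
let-7b-5p: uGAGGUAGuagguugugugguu
let-7i-5p: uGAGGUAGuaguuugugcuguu
let-7c-5p: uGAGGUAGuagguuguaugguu
The next lines carry the seed of the mir-17 family, whose genes lie in 3 clusters on 3 chromosomes.
miR-106b-5p: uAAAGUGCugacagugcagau
miR-93-5p: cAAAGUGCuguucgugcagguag
miR-17-5p: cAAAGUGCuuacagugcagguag
miR-20b-5p: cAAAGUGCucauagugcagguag
The last lines are microRNAs of windows with more H3K9me2 ChIP than input reads. They show a seed shared by the Mir344 genes of chromosome 7 and a seed that Mir344e shares with Mir410 of chromosome 12.
miR-344b-5p: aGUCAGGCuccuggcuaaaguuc
miR-344d-1-5p: aGUCAGGCugcuggcuauacacca
miR-344e-3p: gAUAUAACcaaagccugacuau
miR-410-3p: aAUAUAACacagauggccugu
miR-379-5p: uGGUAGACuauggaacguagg

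To show what a window surrounds, the genome sequence is given for a microRNA gene with high and one with undetected H3K9me2, with 70 bases on either side and the hairpin in capitals. Both are written 5′ to 3′ on the strand of the microRNA gene in GRCm38. Mir379 is at chr12:109708990-109709195 on the plus strand and Mir106b at chr5:138165667-138165888 on the minus strand.
Mir379: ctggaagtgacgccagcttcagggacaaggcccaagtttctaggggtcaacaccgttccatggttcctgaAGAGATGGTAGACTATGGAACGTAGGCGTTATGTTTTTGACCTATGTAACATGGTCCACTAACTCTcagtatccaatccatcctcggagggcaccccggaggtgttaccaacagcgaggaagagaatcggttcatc
Mir106b: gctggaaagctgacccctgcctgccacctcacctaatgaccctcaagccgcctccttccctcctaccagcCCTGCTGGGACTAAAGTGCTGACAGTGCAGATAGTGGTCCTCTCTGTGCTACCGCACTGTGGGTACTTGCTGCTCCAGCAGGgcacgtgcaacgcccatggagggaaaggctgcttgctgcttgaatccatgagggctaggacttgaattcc

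Reads in single windows were few. Over all microRNA gene windows the table holds 3922 ChIP reads in v102 and 4934 in v134, and 11829 and 22723 input reads. A window had 0 to 142 ChIP reads in v102 and 0 to 81 in v134, with medians of 5 and 6, and medians of 20 and 37 input reads. ChIP and input reads were compared with edgeR's quasi-likelihood test fitted on all 26354 rows, with Benjamini-Hochberg adjustment over all of them and a threshold of 0.05. A window is called higher, or said to have more ChIP than input reads, where its fitted fold change over input was positive and passed that threshold. Lower, or fewer, is the reverse. The fit scales for library size, so a window called higher can hold fewer raw ChIP than input reads. Every adjusted p below is from that fit unless the replicate block is named, which adds the experiment number as a term. The level of a window is the log2 of its ChIP over its input reads, with 1 read added to both and scaled for the sums of the libraries over all rows, and is given as the mean ± SD of the 2 experiments. Fold changes over input are the fitted log2 values with their standard error (SE). The H3K9me2/input read ratio divides the ChIP reads of both experiments by their input reads, unscaled, with a 95% Wilson interval that covers counting error only. Over all rows of the table that read ratio was 0.230.

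Both high and low H3K9me2 were found among the microRNA gene windows, and their shares are set beside those of the whole table without a test of the difference. More ChIP than input reads were found at 104 of 595 windows (17.5%), beside 18.6% of all rows, and fewer at 72 (12.1%), beside 17.0% of all rows. The remaining 419 windows passed in neither direction. With the replicate block, 83 windows were higher and 37 lower, beside 15.8% and 8.30% of all rows, and all of them were among the 104 and 72. With library totals in place of TMM factors, the split turned to 88 higher (14.8%) and 97 lower (16.3%), as it did over all rows, of which 16.3% were higher and 21.5% lower, and the median fitted fold change of all rows moved from -0.35 to -0.50. Of the 72 lower windows, 58 had at most 3 ChIP reads in both experiments together, and 8 had none. The median log2 ratio of the microRNA gene windows was -0.11, beside -0.31 for all rows, and their quartiles lay at -0.92 and 0.72, beside -1.16 and 0.66. It was 0.12 in v102 and -0.28 in v134. Among the 25% of all rows with the highest mean ratio stood 163 of the windows (27.4%). In the top 25% in both experiments were 106 (17.8%), beside 17.7% of all rows. With the GC trend removed the order of the medians turned, to -0.59 beside -0.36 for all rows, and the share in the top 25% fell to 21.3%. Across the 595 windows the experiments had a Spearman correlation of 0.695 (Pearson 0.663), beside 0.689 across all rows. These are correlations across windows, many of which overlap.

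**Figure D1:**
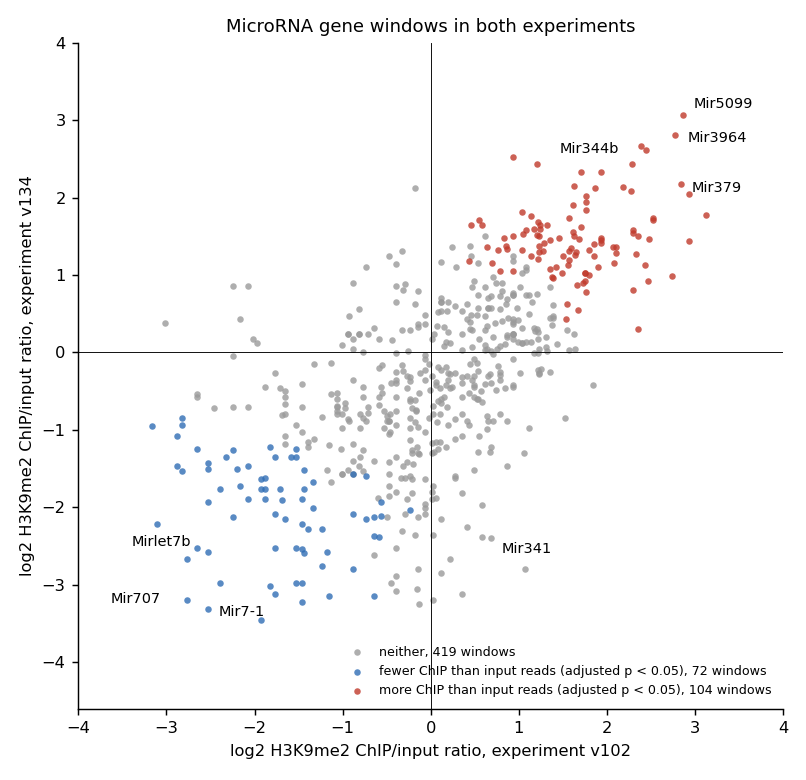
Log2 H3K9me2 ChIP/input ratio of the 595 microRNA gene windows in experiment v102 (x axis) and experiment v134 (y axis), 1 point for each window, coloured by the edgeR call. The 104 higher windows fill the upper right and the 72 lower windows the lower left, while Mir341 is above 0 in v102 and below 0 in v134.

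The highest windows, 1 for each chain of overlapping windows, were those of Mir5099, Mir3964, Mir465, Mir680-1, Mir379, Mir470, Mir344b and Mir882. All but Mir344b, in an intron of the noncoding gene A230057D06Rik, lay outside the annotated span of other genes. This does not exclude a longer transcript, since Mir379 and Mir882 belong to a region of long noncoding RNAs described below. At Mir5099, chr12:36816205-36816278, there were 18 and 36 ChIP reads in v102 and v134 against 9 and 20 input reads, a read ratio of 1.86 (1.19 to 2.91). Both ChIP libraries there held more reads than their inputs although the input libraries held more reads over the table. Its mean log2 ratio was 2.96 ± 0.14 (SD, n = 2), and the fitted fold change was 3.14 (SE 0.40, adjusted p = 2.55e-12). Mir3964, chr15:29713331-29713404, had 42 and 39 ChIP reads against 23 and 26 input reads, with the closest agreement between experiments in this group, 2.79 ± 0.02. Mir680-1 on chromosome 6 had 26 and 38 ChIP reads against 18 and 29 input reads, a mean log2 ratio of 2.53 ± 0.13.
Mir465 and Mir470 are neighbours on the X chromosome and belong to a group of X-linked microRNAs known from the testis. Mir465 had 10 and 26 ChIP reads against 7 and 19 input reads, and Mir470 had 15 and 15 against 6 and 21. For Mir470 the experiments stood further apart (2.45 ± 0.95) than for Mir465 (2.53 ± 0.20). All 8 windows had more ChIP than input reads with the replicate block as well.

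At the other end, H3K9me2 was not detected in either experiment at 8 windows, those of Mir707, Mir7-1, Mir106b, Mir26b, Mir25, Mir93, Mirlet7i and Mir5116. All 8 lay within other genes. Mir707, chr7:44849699-44849771, lies in an exon of Akt1s1, and its window holds the starts of the coding genes Akt1s1 and Tbc1d17. It had 0 ChIP reads against 25 and 42 input reads, which by a floor of 3 ChIP reads over both libraries puts it at least 5.14-fold lower than input after scaling (adjusted p = 0.000175). Mir7-1, in an intron of Hnrnpk, which encodes an RNA-binding protein, had 0 against 21 and 46 reads and was also at least 5.14-fold lower (adjusted p = 0.000193). Mir26b, in an intron of the phosphatase gene Ctdsp1, had 0 against 19 and 36 reads and was at least 4.22-fold lower (adjusted p = 0.000851). Mir5116 had the fewest input reads of the 8, 9 and 22, and its call was lost with the replicate block (adjusted p = 0.0712, from 0.0114).
The 8 lowest windows by mean log2 ratio, again 1 for each chain, were Mir707, Mir7-1, Mir106b, Mir3094, Mir26b, Mirlet7b, Mir3102 and Mir3062. Each of the 4 that had a ChIP read had 1 in all. Mir3094, in an intron of Nfx1, had 1 and 0 ChIP reads against 28 and 51 input reads, a read ratio of 0.0127 (0.00221 to 0.0723). Mir3102, in an exon of Arhgef17, had 1 and 0 against 25 and 40, and Mir3062, partly in an exon of the purine synthesis gene Pfas, had 1 and 0 against 26 and 37. All 8 kept their call with the replicate block.

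MicroRNA genes are often transcribed in clusters. Joining windows whose starts lay within 10 kb of the next gave 10 clusters of 4 or more members, with 115 windows and 36 of the 104 higher windows. H3K9me2 was high in the clusters Mir770 to Mir136 and Mir379 to Mir3072 of chromosome 12 and, before a GC trend was removed, in Mir743 to Mir881 of the X chromosome. The cluster Mir302b to Mir367 had 3 of 5 and Mir17 to Mir92-1 had 1 of 6 windows lower, none of them with the replicate block, and Mir290 to Mir295 had none. Over all rows 18.6% were higher and 17.0% lower.

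**Figure D2:**
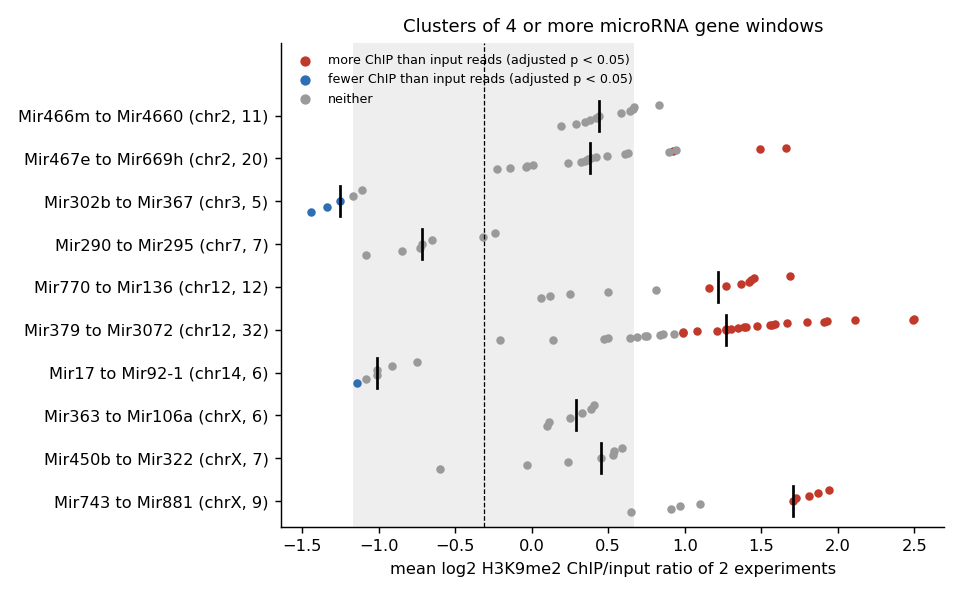
Mean log2 H3K9me2 ChIP/input ratio of 2 experiments (x axis) for each microRNA gene window in the 10 clusters of 4 or more members (rows, with chromosome and number of windows). Points are windows coloured by the edgeR call, black bars are cluster medians, and the grey band and dashed line are the quartiles (-1.16 and 0.66) and the median (-0.31) of all 26354 rows. The medians run from -1.25 at Mir302b to Mir367 to 1.71 at Mir743 to Mir881.

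The Dlk1-Dio3 region of chromosome 12 is an imprinted domain. The maternal chromosome expresses noncoding RNAs, Meg3, Rian and Mirg, from which many microRNAs and small nucleolar RNAs (snoRNAs) are processed, and the paternal chromosome expresses the coding genes Dlk1 and Rtl1. Its 2 microRNA clusters, chr12:109563692-109595388 and chr12:109709060-109747960, hold 44 windows in 12 chains. Counts and medians given for the region, and those given without it, refer to these 44. Mir1906-1, Mir341, Mir1188, Mir370 and Mir882 lie in the region outside these clusters and are not among them. More ChIP than input reads were found at 28 of the 44 (63.6%) and fewer at none, with 22 higher with the replicate block. The 44 are 7.39% of the microRNA gene windows and 26.9% of the higher ones. Without them 76 of 551 windows (13.8%) were higher and 72 lower, and the median log2 ratio was -0.24 rather than -0.11. In 19 windows of the region chosen so as not to overlap, there were 299 and 335 ChIP reads against 416 and 798 input reads. The pooled log2 ratio was 1.46 in v102 and 0.99 in v134, and the read ratio was 0.522 (0.474 to 0.575), beside 0.230 over all rows.
The ratios were highest at the 5′ end of the second cluster. Mir379, its first member, had 59 and 60 ChIP reads against 31 and 63 input reads (2.50 ± 0.47, fold change 2.64, SE 0.33, adjusted p = 4.51e-13). Mir411, whose window overlaps it, had 63 and 53 against 31 and 61 (2.49 ± 0.63). The next 4 windows, Mir1197, Mir323, Mir758 and Mir329, had mean log2 ratios of 1.93, 1.91, 2.11 and 1.80. Within a few kb, the level fell off: Mir494, the lowest of the cluster, had 3 and 10 ChIP reads against 22 and 45 input reads (-0.21 ± 0.54, adjusted p = 0.889), with Mir679 at 0.50 and Mir1193 at 0.47. It was higher again over Mir381, Mir487b and Mir539 (1.47, 1.59 and 1.56) and over Mir382, Mir134 and Mir485 (1.57, 1.67 and 1.40). The last member, Mir3072, had 6 and 10 ChIP reads against 25 and 43 input reads (0.14 ± 0.14).
In the first cluster 7 of 12 windows were higher, 4 with the replicate block. Mir770, within Meg3, had 26 and 36 ChIP reads against 32 and 72 input reads (1.45 ± 0.27, adjusted p = 7.04e-05). The windows of Mir337, Mir540 and Mir665, which overlap one another, were the lowest, between 0.06 and 0.25. Mir431, Mir433, Mir127, Mir434, Mir432 and Mir136 lie on the strand opposite to Rtl1, whose messenger RNA several of them are known to target. Of these 6, 5 were higher, and Mir433 was the highest of the cluster with 22 and 11 ChIP reads against 15 and 29 input reads (1.69 ± 1.09). The calls of Mir434, Mir432 and Mir136 were lost with the replicate block (adjusted p = 0.126, 0.063 and 0.106).
Between the clusters the experiments did not agree everywhere. Mir341 and Mir1188, overlapping windows in Rian, had 7 and 8 ChIP reads in v102 and 1 each in v134, against 18 and 22 and against 49 and 48 input reads. Their log2 ratios were therefore above 0 in v102 and below it in v134, and their means, -0.86 ± 2.18 and -0.90 ± 2.09, describe neither experiment. Mir882, further downstream beside the snoRNA genes AF357428 and AF357341, was high with 29 and 33 ChIP reads against 14 and 58 input reads (2.19 ± 1.05, adjusted p = 5.74e-08). These snoRNA windows were higher too, with mean log2 ratios of 1.03 (adjusted p = 0.0280) and 1.92 (adjusted p = 6.29e-07), while that of AF357425, another snoRNA gene of the region, was not called (0.76, adjusted p = 0.101). The AF357341 window overlaps that of Mir882. Among the promoters of the domain, that of Meg3 was high with 9 and 10 ChIP reads against 10 and 20 input reads (1.55 ± 0.34, adjusted p = 0.0132), and that of Rtl1 passed in neither direction (0.57 ± 0.76, adjusted p = 0.308). The promoter of Dlk1 was lower, with 1 and 0 ChIP reads against 10 and 42 input reads (-1.86 ± 1.88, adjusted p = 0.0108).

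**Figure D3:**
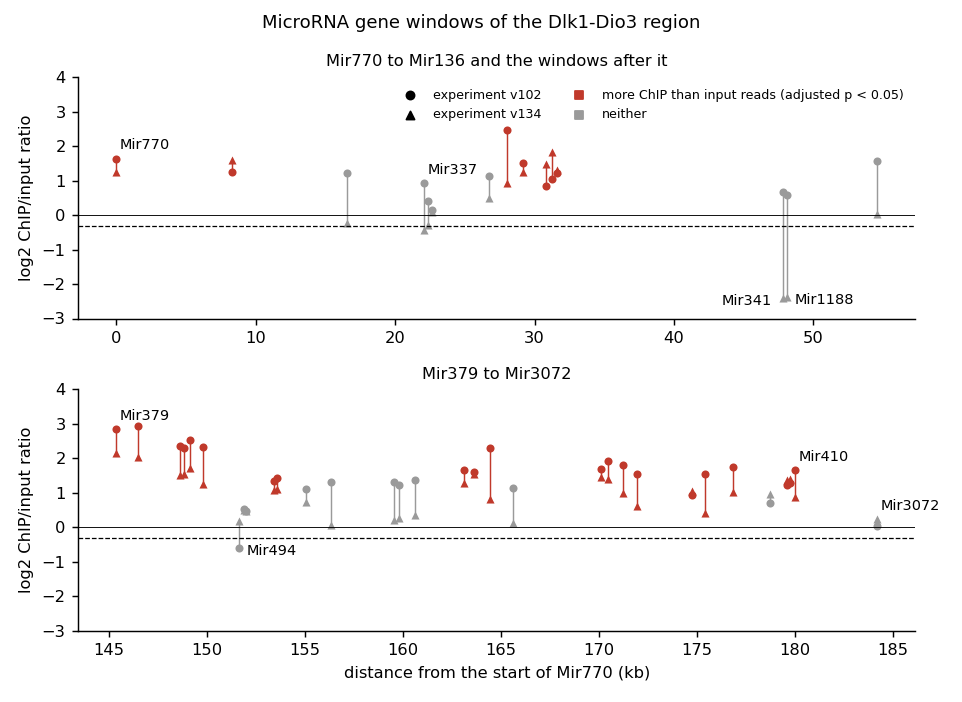
Log2 H3K9me2 ChIP/input ratio of microRNA gene windows of the Dlk1-Dio3 region in experiment v102 (circles) and v134 (triangles) against the distance from the start of Mir770 in kb, with the first cluster and the windows after it above and the second cluster below. Mir882, which lies between the panels, is not drawn. Red windows had more ChIP than input reads after scaling for library size, by the edgeR call, and the dashed line is the median of all rows (-0.31). Mir379 and its neighbours are the highest, and Mir341 and Mir1188 lie on both sides of 0.

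The imprinted array in Sfmbt2 had a lower pooled ratio than the Dlk1-Dio3 region. The Sfmbt2 gene of chromosome 2, which encodes a Polycomb-group protein, carries in an intron a rodent array of near-identical microRNAs of the miR-297, miR-466, miR-467 and miR-669 families. Its 31 windows, in the clusters Mir466m to Mir4660 (chr2:10466663-10472623) and Mir467e to Mir669h (chr2:10505721-10518279), had a median log2 ratio of 0.42 and ran from -0.23 at Mir669m-2 to 1.66 at Mir297b. Their median GC content was 39.6%, and with the GC trend removed their median was -0.88, beside -0.36 for all rows, with none of the 31 left in the top 25% of rows, where 7 had been. Only Mir297b, Mir466d and Mir669m-1 were higher, and none was lower. With the replicate block Mir669m-1 lost its call (adjusted p = 0.0793, from 0.0476). Mir297b had 13 and 21 ChIP reads against 17 and 30 input reads (adjusted p = 0.00022). In 9 windows that do not overlap, the read ratio was 0.312 (0.260 to 0.373), with pooled log2 ratios of 0.61 and 0.31. The promoter of Sfmbt2 itself stood above most of the array, with 13 and 27 ChIP reads against 17 and 57 input reads (mean log2 ratio 1.38, adjusted p = 0.00162). Repeats made up a median of 40.4% of these windows, and reads of near-identical copies could have been placed at any of them, so values of single members are uncertain.

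The cluster Mir743 to Mir881, chrX:66776757-66802021, had the highest median of all clusters, 1.71, with 5 of 9 windows higher, 4 with the replicate block. Its microRNAs are known from the male germ line. Mir883a, its highest member, had 8 and 11 ChIP reads against 6 and 18 input reads (1.94 ± 0.51, adjusted p = 0.00348), and Mir878, its lowest, had 3 and 9 against 13 and 20 (0.65 ± 0.74). In 7 windows that do not overlap, the read ratio was 0.687 (0.547 to 0.862), with pooled log2 ratios of 1.20 and 1.78. These windows were poor in G and C, with a median of 33.5%, and after a trend with GC content was removed the median of the cluster fell to -0.20, beside -0.36 for all rows. None of the 9 was then left in the top 25% of rows, where 8 had been. The part of base composition in the high ratios was not tested. In the Dlk1-Dio3 region, where the median GC content was 49.5%, the corresponding median was 1.34. The other clusters of the X chromosome, Mir363 to Mir106a and Mir450b to Mir322, had medians of 0.29 and 0.45, and none of their 13 windows passed in either direction. Mir322, the lowest, differed between experiments, with 0 and 4 ChIP reads against 15 and 12 input reads.

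No window of the microRNAs of pluripotent cells was called higher. The windows of Mir290 to Mir295 and of Mir302b to Mir367 belong to the main microRNA clusters of mouse embryonic stem cells. Of these 12 windows none was higher, 3 were lower, none with the replicate block, and the median was -0.96. Of all rows 18.6% were higher and 17.0% lower. The windows of each cluster form 1 chain of overlapping windows, so the 12 are not separate measurements. The Mir302 windows all overlap and rest on the same 2 and 2 ChIP reads. Mir302b had these against 18 and 62 input reads, a read ratio of 0.05 (0.0190 to 0.131), with an adjusted p of 0.0158, and 0.0504 with the block. The cluster lies in an intron of Larp7, on the other strand. Mir292, the highest of the 12, had 7 and 3 ChIP reads against 22 and 34 input reads (-0.24 ± 0.92).

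A group of windows that no fixed list held, and that was chosen after its values were seen, lies on chromosome 7. The 8 windows of the Mir344 genes are spread over 363.1 kb (chr7:61683124-62046248) without overlapping, in or beside the noncoding genes A230057D06Rik and A330076H08Rik. All 8 had more ChIP than input reads, with mean log2 ratios from 1.13 to 2.36 and a median of 1.48. Mir344b was the highest, with 13 and 31 ChIP reads against 10 and 27 input reads (2.36 ± 0.11, adjusted p = 3.51e-08). Mir344d-1 was the lowest, with 4 and 17 ChIP reads against 12 and 25 input reads, and alone lost its call with the replicate block (adjusted p = 0.0883). Of the 8, 6 carry the seed GUCAGGC shown above in miR-344b-5p. The seed AUAUAAC was found in 3 windows, Mir344d-1, Mir344e and Mir410, and all 3 were higher. With a median GC content of 39.1%, the Mir344 windows had a median of 0.13 once the GC trend was removed, and 4 of the 8 then stood in the top 25% of rows.

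The let-7 family is made from many genes and is known for high expression in differentiated tissues. Its 10 listed windows had a median log2 ratio of -1.36, with 5 lower and 2 higher, 4 and 2 with the replicate block. Of all rows 17.0% were lower and 18.6% higher, so the share of higher windows was near that of all rows. Calls were found in both directions. The median GC content of the 10 windows was 39.5%. With the GC trend removed their median was -2.25, beside -0.36 for all rows. None of the 10 then stood in the top 25% of rows, where 2 had been. Mirlet7b, in an exon of the noncoding gene Lncppara on chromosome 15, had 0 and 1 ChIP reads against 32 and 43 input reads (-2.67 ± 0.63, adjusted p = 0.000586). Mirlet7c-2, whose window overlaps it, had 1 and 1 against 20 and 43. Mirlet7i had 0 ChIP reads against 12 and 26 input reads and was at least 2.91-fold lower (adjusted p = 0.00554). Mirlet7g, in an intron of Wdr82, had 3 and 2 against 23 and 72 (adjusted p = 0.00989). The call of Mirlet7a-1 was lost with the block (adjusted p = 0.0978, from 0.0486).
The 2 higher windows lay in a pair of related long noncoding transcripts, each of which carries a gene of the miR-99 and miR-100 family, a let-7 gene and a miR-125b gene. In 3110039I08Rik on chromosome 9, Mirlet7a-2 had 12 and 12 ChIP reads against 14 and 32 input reads (1.31 ± 0.59, adjusted p = 0.0160), and Mir100 had 13 and 27 against 22 and 40 (1.45 ± 0.33, adjusted p = 0.000357). In Mir99ahg on chromosome 16, Mirlet7c-1 had 10 and 18 against 15 and 45 (1.18 ± 0.30, adjusted p = 0.0196). Mir99a, whose window overlaps that of Mirlet7c-1, had 11 and 15 against 19 and 44 (0.97 ± 0.32, adjusted p = 0.0534). The miR-125b genes further along each transcript had fewer ChIP reads. Mir125b-1 had 2 and 1 against 13 and 28, and Mir125b-2 had 2 and 2 against 15 and 37, and neither passed in either direction. Among windows for which the sequence table lists the let-7 seed printed above, the mean ratio ran from -2.67 at Mirlet7b to 1.18 at Mirlet7c-1. For Mirlet7a-2, at 1.31, the table lists the 3p sequence only.

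The microRNAs of the mir-17 family promote proliferation, and their genes lie in 3 clusters. In the list of 15 windows of the mir-17-92 cluster and its paralogs none was higher, beside 18.6% of all rows. There 4 were lower (26.7%, beside 17.0% of all rows), 3 of them with the replicate block. The cluster of chromosome 5, inside Mcm7, a gene of DNA replication licensing, had no ChIP read in either experiment. Mir106b had 25 and 29 input reads and was at least 4.14-fold lower (adjusted p = 0.000849), Mir25 had 23 and 26 and was at least 3.76-fold lower, and Mir93 had 21 and 27 and was at least 3.68-fold lower. These 3 windows overlap. The promoter of Mcm7, 6604 bases upstream of Mir106b, had 12 and 16 ChIP reads against 19 and 37 input reads and was higher (mean log2 ratio 1.19, adjusted p = 0.0134). In the cluster of chromosome 14, within Mir17hg, Mir17 had 3 and 8 ChIP reads against 24 and 72 input reads (-0.75 ± 0.05) and Mir18, its lowest member, 3 and 2 against 17 and 57 (adjusted p = 0.05 after rounding, just under the threshold, and 0.116 with the block). The 6 windows of the X-linked cluster form 1 chain, with means between 0.10 at Mir106a and 0.41 at Mir20b, and none passed the test. Their median was below 0 in v102 (-0.14) and above it in v134 (0.68). With library totals in place of TMM factors the fitted value of Mir106a changed sign. All 6 windows with the seed AAAGUGC fell into these 3 clusters, and 2 of them, Mir106b and Mir93, were lower.

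**Figure D4:**
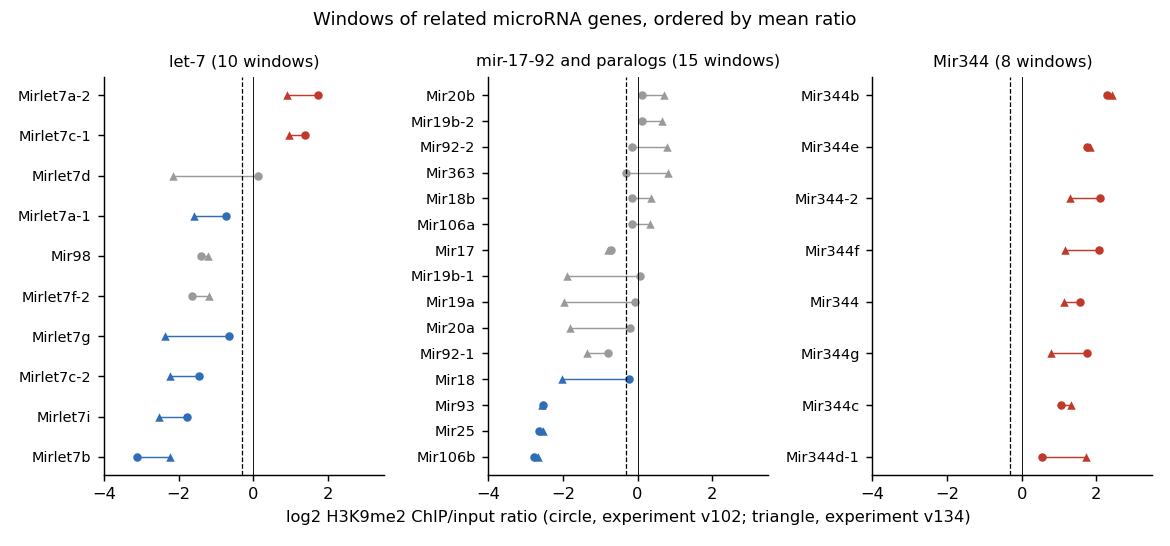
Log2 H3K9me2 ChIP/input ratio (x axis) in experiment v102 (circles) and v134 (triangles) for each window of the let-7 list, of the mir-17-92 cluster and its paralogs, and of the Mir344 genes (rows, ordered by mean). Red windows had more and blue windows fewer ChIP than input reads after scaling for library size, by the edgeR call, and grey neither. The dashed line is the median of all rows (-0.31). The let-7 windows run from -2.67 to 1.31, and all 8 Mir344 windows are red.

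Windows of microRNAs known from vascular smooth muscle had mean log2 ratios from -2.68 at Mir26b to 1.89 at Mir204. All microRNA gene windows ran from -2.98 to 2.96. Of 36 listed windows 5 were higher (13.9%, beside 18.6% of all rows) and 6 lower (16.7%, beside 17.0%), 3 and 3 with the replicate block, and their median was -0.33, beside -0.31 for all rows. Mir143 and Mir145, transcribed together and the main microRNAs of contractile VSMCs, passed in neither direction. Mir143 had 7 and 1 ChIP reads against 20 and 22 input reads (-0.37 ± 1.29, adjusted p = 0.879), and Mir145 had 4 and 2 against 26 and 24 (-0.66 ± 0.23, adjusted p = 0.340). For Mir143 the experiments lay on both sides of 0. Mir21, which rises in injured arteries and lies in an exon of Vmp1, differed between experiments, with 2 and 9 ChIP reads against 18 and 21 input reads (0.19 ± 1.30).
The clearest high window of the list was Mir204, in an intron of Trpm3, which encodes a cation channel. It had 12 and 32 ChIP reads against 15 and 34 input reads (1.89 ± 0.37, fold change 2.09, SE 0.39, adjusted p = 2.29e-06). The promoter of Trpm3, 611559 bases away, was higher as well (1.31, adjusted p = 0.00365). Mir100, above, and Mir146, with 14 and 15 ChIP reads against 16 and 36 input reads (1.39 ± 0.51, adjusted p = 0.00472), also passed. Mir221, with 6 and 10 against 8 and 20, and Mir490, in an intron of the muscarinic receptor gene Chrm2 with 7 and 17 against 17 and 33, passed only without the replicate block (adjusted p = 0.0907 and 0.0684 with it).
The lower windows were Mir26b, described above, Mir1a-1, Mir29c, Mir29b-2, Mir23b and Mir27b. Mir1a-1 had 1 and 1 ChIP reads against 25 and 39 input reads (-1.93 ± 0.22, adjusted p = 0.00893). Mir29c, whose family targets collagens, had 1 and 2 against 24 and 47 (-1.74 ± 0.03, adjusted p = 0.0126). The overlapping windows of Mir23b and Mir27b, and that of Mir29b-2, which overlaps Mir29c, lost their calls with the block (adjusted p = 0.0552, 0.0661 and 0.0791). The parallel cluster on chromosome 8, of Mir23a, Mir27a and Mir24-2, had 1 to 3 ChIP reads in each library and passed in neither direction.

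MicroRNAs of other cell types were read in the same way, and their counts stand beside the same 18.6% and 17.0% of all rows. Of 10 windows of skeletal and cardiac muscle, 2 were higher and 2 lower, 2 and 1 with the replicate block. Mir206, specific to skeletal muscle, had 14 and 19 ChIP reads against 18 and 36 input reads (1.47 ± 0.17, adjusted p = 0.00132), and Mir1a-1 was the lowest. Of 13 windows of blood cells, 2 were higher and none lower. Mir142, a marker of all blood lineages, had 31 and 37 ChIP reads against 28 and 69 input reads (1.72 ± 0.51, adjusted p = 2.22e-06), while Mir144, of red cells, had 5 and 1 against 27 and 39 (-1.19 ± 1.27). Of 4 endothelial windows none was higher and 1, Mir92b, was lower, with 0 and 2 ChIP reads against 26 and 40 input reads. Mir126, the best known endothelial microRNA, had 5 and 4 against 22 and 32 (-0.24 ± 0.34). Of 20 neuronal windows 3 were higher, led by Mir384 (1.85 ± 0.13, adjusted p = 0.0029), and 2 lower, led by Mir7-1, which are 15.0% and 10.0% of the list. With the block 2 were higher and 1 lower. Of 20 epithelial windows 2 were higher and 1 lower. There Mir216b had 18 and 24 ChIP reads against 14 and 27 input reads (2.17 ± 0.14, adjusted p = 4.74e-07), and Mir203 had 0 and 1 against 18 and 23 (-1.83 ± 0.69, adjusted p = 0.0260, and 0.0757 with the block).

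The share of called windows differed with their placement, given here as counts without a test. Over all rows 18.6% were higher and 17.0% lower, and 15.8% and 8.30% with the replicate block. Outside the annotated span of other genes lay 141 windows, of which 42 (29.8%) were higher and 7 (4.96%) lower. Among them are windows of the Dlk1-Dio3 region, so a window counted here can still lie in a longer noncoding transcript. Within a gene on the same strand lay 387, with 52 higher (13.4%) and 57 lower (14.7%), 40 and 32 with the replicate block. Within a gene on the opposite strand lay 53, with 7 higher and 7 lower (13.2% each), 4 and 2 with the block. Without the 44 windows of the Dlk1-Dio3 clusters, 30 of 116 windows outside genes were higher (25.9%). On the same strand 41 of 374 (11.0%) were then higher, and on the opposite strand 2 of 47 (4.26%). Those 116 windows outside genes had a median log2 ratio of 0.24, beside -0.31 for all rows. With the GC trend removed it was -0.31, beside -0.36. In the top 25% of rows stood 43 of the 116, and 26 with the GC trend removed. In introns on the same strand, 38 of 251 windows were higher and 23 lower, and in exons, 10 (9.80%) were higher and 29 (28.4%) lower. With the replicate block the lower counts were 14 in introns, 15 in exons and 2 outside genes. The window held the start of a protein-coding gene in 52 cases, and there 15 were lower, 8 with the block, and 1 was higher. That exception was Mir5126, whose window holds the start of Dner, a gene of the Notch pathway in neurons, with 16 and 14 ChIP reads against 24 and 35 input reads (1.18 ± 0.28, adjusted p = 0.0104). Windows with a coding start had a median GC content of 56.6%, the others 45.5%. Their median log2 ratios were -0.96 and -0.02, and -0.62 and -0.59 with the GC trend removed. The part of GC content in the counts of called windows was not tested. Across the 581 placed windows the ratio and GC content had a Spearman correlation of -0.32, beside -0.54 across all rows.

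**Figure D5:**
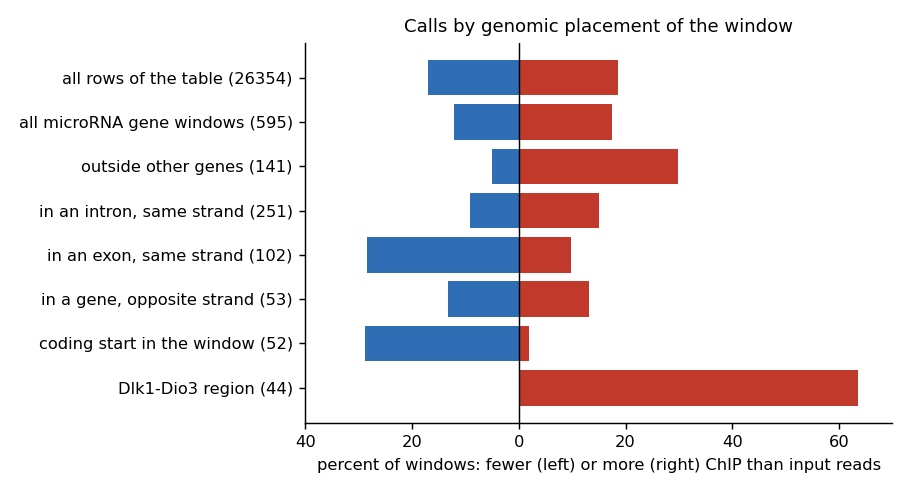
Percent of windows with fewer (blue, left) and more (red, right) H3K9me2 ChIP than input reads after scaling for library size, by the edgeR call. Bars are for all rows of the table, all microRNA gene windows, and windows by genomic placement, with the number of windows in parentheses. Windows in the 2 clusters of the Dlk1-Dio3 region reach 63.6% higher, windows outside other genes 29.8%, and windows with a coding start 1.92%.

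For 250 windows the promoter of the host gene had its own row that did not overlap. Over these pairs the window was above the promoter in both experiments for 92 and below it in both for 92 (36.8% each), but several windows can share a host. Keeping 1 window for each of the 199 hosts, the window was above its host's promoter in both experiments for 83 hosts, below it in both for 56, and in neither order for 60. The medians were -0.40 for the windows and -0.71 for the promoters, and their GC contents differed, with medians of 45.6% and 54.7%. Across the 199 pairs the ratios had a Spearman correlation of 0.23. Low windows did not always lie under low promoters. Hnrnpk, host of Mir7-1, had 2 and 11 ChIP reads against 16 and 41 input reads at its promoter, and Ctdsp1, host of Mir26b, had 2 and 5 against 24 and 36. Neither promoter passed in either direction, while the microRNA windows within these genes had no ChIP read. The opposite order was seen at Mir383 in Sgcz, where the window was higher (2.13, adjusted p = 1.37e-07) and the promoter, 409306 bases away, was not called (0.62, adjusted p = 0.377).

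Among chromosomes, chromosome 12 had the most higher windows, 30 of 65, of which 28 were in the clusters of the Dlk1-Dio3 region. On the X chromosome, present in 1 copy in these male animals, 14 of 64 windows (21.9%, beside 18.6% of all rows) were higher, and 1 was lower. With the replicate block 8 of the 64 were higher, a smaller share than the 15.8% of all rows. Without the cluster Mir743 to Mir881, 9 of 55 (16.4%) were higher. With the block 4 of the 55 were, again a smaller share than over all rows. The X-linked windows had a median GC content of 39.0%. With the GC trend removed their median went from 0.49 to -0.72, beside -0.36 for all rows. Then 7 of the 64 stood in the top 25% of rows, where 24 had been. The X-linked windows had a median of 11 and 20 input reads, beside 20 and 37 over all microRNA gene windows. The highest shares of lower windows were 35% on chromosome 13 (7 of 20, 2 with the block), 29.2% on chromosome 3 (7 of 24, 3 with the block), 27.3% on chromosome 15 (6 of 22, 4 with the block), 25% on chromosome 17 (3 of 12, none with the block) and 23.5% on chromosome 5 (4 of 17, 3 with the block). Of all rows 17.0% were lower, and 8.30% with the block. The chromosomes were picked by these shares. The windows share reads within clusters, so these counts are not of separate measurements. Of the 14 windows that could not be placed, 3 were higher and 1, Mir193, was lower. Among them was Mir5105, the window with the most reads, with 142 and 81 ChIP reads against 145 and 178 input reads (1.51 ± 0.56). Without a position, neither its host nor its neighbours can be given.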

How the data were processed

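H3K9me2 ChIP-seq of the aortic medial layer was analysed from 2 ChIP and 2 input libraries. The authors trimmed reads with Trim Galore 0.4.2 and cutadapt 1.9.1, aligned them to GRCm38 with Bowtie2 2.2.7, quantified reads within 1 kb of transcription start sites with SeqMonk and removed genes with few input reads. The deposited values are raw counts per window and library, their sums, and the unscaled ratio of summed ChIP to input counts. The annotation release and duplicate handling are not given in the sources used here. Every row has at least 21 summed input reads. Totals over the table are 162233 and 229605 ChIP and 619100 and 1084349 input reads, which are not library depths.

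Counts were tested with edgeR 4.0.16 in R 4.3.3 (quasi-likelihood, TMM, no block, tested on simulated data first) and, as an alternative, DESeq2 1.42.0. Log2 ratios used a pseudocount of 1. Intervals are 95% Wilson intervals of the ChIP share, and a count of 0 was bounded by 3 reads over both libraries. Positions are from GENCODE M21 by symbol (561) or a RefSeq synonym (20). The authors' start may differ. The GC trend was removed by lowess with fraction 0.3. Reads were counted without molecular identifiers, so intervals cover counting error only.

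The microRNA windows and the lists were chosen with earlier results of these data known. The text names the 8 highest and 8 lowest called windows, 1 for each chain, the windows without ChIP reads, the extremes of each cluster of 4 or more members and of each list, all members of the smooth muscle, endothelial and let-7 lists where needed, and their hosts. Other members and neighbours of the Dlk1-Dio3 region, the Mir344 genes, Mir383, Mir5105, Mir193 and Mir5126 were named after their values were seen. The experiment number pairs the libraries, because each ChIP has its own input, and the differences of ChIP and of input reads between experiments had a correlation of 0.104 over all rows.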

Additional observations from a re-analysis of the deposited data

How the results depend on the processing

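The count of higher microRNA gene windows stayed within 1.5 times of 104 with library totals, with the replicate block, without mitochondrial rows, with autosomal rows only and without the Dlk1-Dio3 region. With the experiment number as a replicate block, the lower windows fell from 72 to 37, and over all rows from 4484 to 2187. DESeq2 called 51 microRNA gene windows higher and 0 lower, and 3026 and 29 rows in all, of 8982 rows with a defined adjusted p. Fitted on the rows with at least 20 reads in each input, 57 were higher and 32 lower of 318, and 2446 and 1678 of all 13993 rows. The main fit had called 37 of the same 318 windows higher and 53 lower. Which call was more frequent among them therefore depended on the rows that were fitted. The median log2 ratio of the microRNA gene windows was 0.43 with a pseudocount of 5 reads, when that of all rows was 0.34. It was -0.59 with the GC trend removed, when that of all rows was -0.36. The share of windows in the top 25% of rows was 27.4%, 21.3% with the GC trend removed and 23.2% without the Dlk1-Dio3 region, an alternative added after seeing the data. Leaving out 1 experiment gave medians from -0.28 (without v102) to 0.12 (without v134) and shares from 25.2% to 28.4%. A lone ChIP and a lone input library leave no residual degrees of freedom, so the test was not run without an experiment.

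For 84 named windows, 345 values under the alternatives kept direction and call, 23 lost and 7 gained the call, and 15 changed sign, none of them past the threshold on either side. With library totals the sign changed at Mir106a (-0.04) and Mir540 (-0.07). With at least 20 reads in each input it changed at Mir126 (0.02), Mir143 (0.21), Mir152 (0.04), Mir292 (0.12), Mir494 (0.24) and Mir669m-2 (0.26). With autosomal rows only it changed at Mir125a (0.04), Mir143 (0.03), Mir155 (0.14), Mir34a (0.14), Mir494 (0.07) and Mir669m-2 (0.05), and without mitochondrial rows at Mir155 (0.00). The cause was not tested. Median fitted fold changes of all rows were -0.35, -0.50 with library totals and -0.26 with autosomal rows. With the replicate block 9 of the 84 windows lost their call and no other call changed. With medians of 5 and 6 ChIP reads, depth limits what can be called lower.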
